A study of Macaca mulatta with 6 samples.

Results

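The enzymes described here hydroxylate collagen inside the cell or cross-link collagen and elastin outside it. The rule named 10 genes, LOX, LOXL1, LOXL2, LOXL3, LOXL4, PLOD1, PLOD2, PLOD3, P4HA1 and P4HA2. Of these, 7 had a row among the 17795 genes of the count table, namely 2 of the lysyl oxidase family, 3 lysyl hydroxylases and 2 prolyl 4-hydroxylase alpha subunits. LOX, LOXL2 and LOXL4 were not analysed here. Bulk RNA sequencing covered rhesus monkey cells from testis, cultured as spermatogonial stem cells (SSCs, the self-renewing cells from which sperm arise) in 3D hydrogel droplets. Human platelet-derived growth factor (PDGF) was present for the 3 libraries of SSC PDGF+ and left out for the 3 libraries of SSC PDGF-. The labels place replicate 1 of each group in batch 1 and replicates 2 and 3 in batch 2, give the tissue as testis, and state neither the animals, their ages nor the days in culture. The culture methods list GDNF, EGF, LIF, bFGF, Wnt3a, serum and vitamin C beside PDGF, without a separate recipe for the control. They name basement membrane extract for the droplets, while the paper elsewhere calls the system a collagen-PDGF hydrogel or scaffold. Nothing states that the replicates came from separate cultures, so p-values may measure technical spread only.

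Collagen chains are modified before they leave the endoplasmic reticulum. Prolyl 4-hydroxylase, a complex of an alpha subunit with P4HB (protein disulfide isomerase), hydroxylates proline and thereby stabilizes the triple helix. Lysyl hydroxylases, encoded by PLOD genes, hydroxylate lysine, the residue from which cross-links form and to which sugars are attached. Both groups of enzymes use iron, 2-oxoglutarate, oxygen and ascorbate (vitamin C). Lysyl oxidases are secreted copper enzymes that oxidize lysine and hydroxylysine so that collagen and elastin fibers become cross-linked. P4HA1, P4HA2, PLOD1 and PLOD2 are known in other cells as genes that rise under low oxygen, where the transcription factor HIF binds the core sequences ACGTG or GCGTG.

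The sequence before the start of each gene was therefore read, and 4 windows are shown because they hold ACGTG on either strand and belong to 4 members whose groups did not overlap, with PDGF higher. The windows are the 250 bases upstream of the gene start in the RefSeq annotation of Mmul_10, printed 5′ to 3′ on the gene's own strand. They lie at chr9:64640137-64640386 (plus strand) for P4HA1, chr6:129679711-129679960 (minus strand) for P4HA2, chr2:48322439-48322688 (minus strand) for PLOD2 and chr1:212521030-212521279 (minus strand) for PLOD1. The submitters' notes name both Mmul_10 and Mmul_8.0.1, and which of them served the counting is not given in the sources used here. Capitals mark ACGTG or its reverse complement CACGT.
P4HA1: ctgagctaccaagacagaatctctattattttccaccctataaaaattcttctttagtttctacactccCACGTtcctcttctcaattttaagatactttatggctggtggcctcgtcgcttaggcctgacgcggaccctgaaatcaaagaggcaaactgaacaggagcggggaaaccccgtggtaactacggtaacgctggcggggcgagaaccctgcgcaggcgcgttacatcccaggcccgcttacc
P4HA2: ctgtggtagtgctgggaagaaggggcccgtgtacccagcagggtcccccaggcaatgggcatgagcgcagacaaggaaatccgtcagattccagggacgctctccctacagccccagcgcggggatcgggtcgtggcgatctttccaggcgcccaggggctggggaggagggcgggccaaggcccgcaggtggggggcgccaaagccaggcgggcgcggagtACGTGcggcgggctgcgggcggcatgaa
PLOD2: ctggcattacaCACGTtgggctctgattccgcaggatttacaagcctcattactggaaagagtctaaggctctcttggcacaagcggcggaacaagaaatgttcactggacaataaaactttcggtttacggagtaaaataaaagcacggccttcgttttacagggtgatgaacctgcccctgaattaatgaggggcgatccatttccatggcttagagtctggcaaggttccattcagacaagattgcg
PLOD1: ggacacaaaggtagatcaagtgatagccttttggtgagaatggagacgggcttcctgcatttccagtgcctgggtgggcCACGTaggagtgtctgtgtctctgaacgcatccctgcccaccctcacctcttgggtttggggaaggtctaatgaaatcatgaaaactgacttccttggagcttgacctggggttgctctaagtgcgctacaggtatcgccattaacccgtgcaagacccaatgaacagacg
Each of these 4 windows held 1 match, which began 181 bases before the gene start in P4HA1, 28 in P4HA2, 239 in PLOD2 and 171 in PLOD1. LOXL3 held GCGTG, beginning 5 bases before its start, and no ACGTG, while LOXL1 and PLOD3 held neither. Among 11134 tested protein-coding genes with such a window, 20.7% held ACGTG and 52.5% held either core. Because the 4 printed windows were picked for both ACGTG and higher levels with PDGF, their sharing of these traits is not a result. A match is a description of the letters in this window, and binding was not measured.

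The hydroxylase genes P4HA1, P4HA2 and PLOD2 rose with PDGF, by 2.20-fold, 1.87-fold and 2.16-fold, and the lysyl oxidase gene LOXL3 fell, to a level 1.59-fold lower. PLOD1, PLOD3 and LOXL1 did not pass the threshold in the test without a batch term. P4HA1, P4HA2, PLOD2 and also PLOD1 were at higher levels in every SSC PDGF+ library than in any SSC PDGF- library. In bulk samples, fewer cells of a type and less RNA per cell cannot be told apart. Genes were tested with edgeR's quasi-likelihood test on TMM-normalized counts, with a Benjamini-Hochberg adjusted p under 0.05 over the 11539 genes that passed the count filter, all 7 members among them. Levels are counts scaled to a common library size (CPM) after TMM normalization, and every ± is the SD over 3 libraries (n = 3). Of all genes tested, 7.61% were called higher and 10.7% lower in SSC PDGF+, beside 3 of 7 members higher and 1 of 7 lower. The median log2 fold change was 0.76 over the 7 members and 0.02 over all genes tested. The members were chosen with earlier results of these data known, so these comparisons are not independent evidence of their direction. Groups did not overlap in 5 of the 7 members, in 4 of them with PDGF higher; over all genes tested, 18.2% did not overlap with PDGF higher and 19.3% with PDGF lower. DESeq2 called 5 members higher, where it called 10.2% of all genes higher, and edgeR with batch as a term called 6, where it called 31.2% higher. With replicates 2 and 3 of each group summed to 1 library, no member was called (edgeR adjusted p between 0.066 and 0.79), where 1.72% of all genes were called higher and 4.06% lower. Libraries held between 10593808 and 14102698 counts, more in SSC PDGF+, and each member had at least 170 counts in each library.

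**Figure D1:**
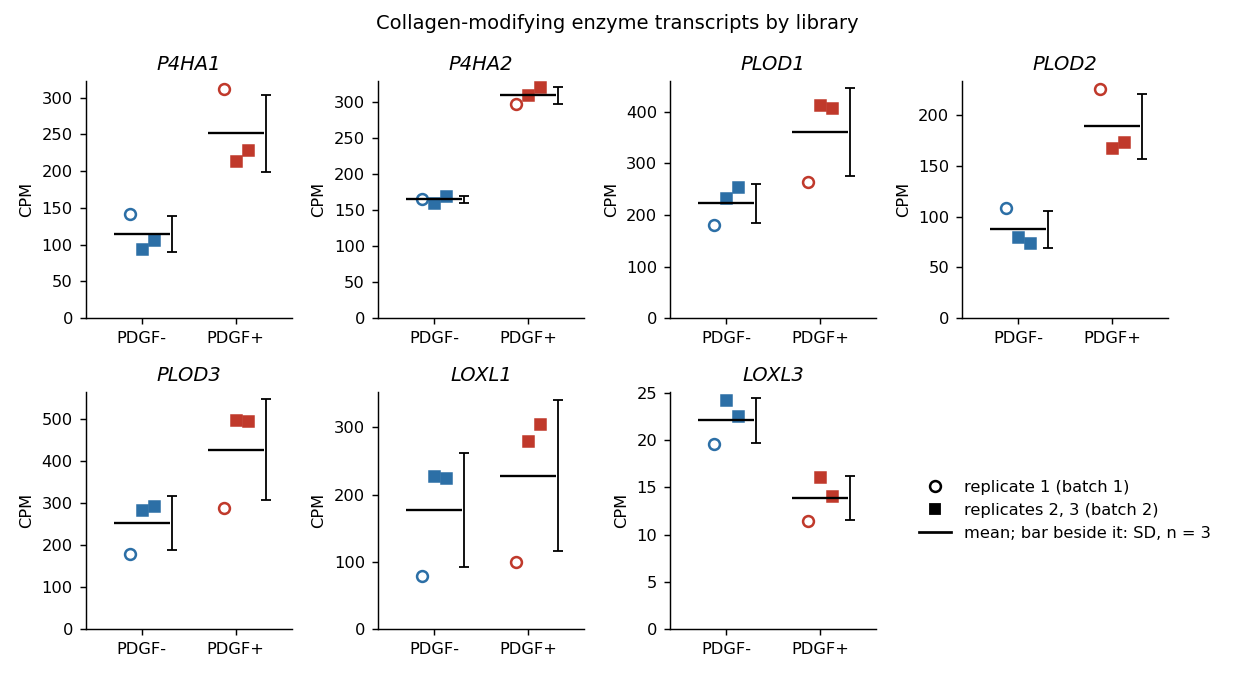
Expression of the 7 members in CPM after TMM normalization, for SSC PDGF- (blue) and SSC PDGF+ (red). Open circles are replicate 1 (batch 1), squares are replicates 2 and 3 (batch 2), lines are means and bars are SD (n = 3). P4HA2 lay between 161 and 170 CPM without PDGF and between 298 and 321 CPM with it, while LOXL1 separated by batch.

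The alpha subunits carry the catalytic site of prolyl 4-hydroxylase, and both were higher with PDGF. P4HA1 was at 311, 214 and 229 CPM in SSC PDGF+ replicates 1, 2 and 3 and at 141, 94.0 and 107 CPM in SSC PDGF- replicates 1, 2 and 3. The groups did not overlap, and replicate 1 was the highest library within each group. Mean levels were 251 ± 52.6 CPM and 114 ± 24.5 CPM, a 2.20-fold difference. The log2 fold change of P4HA1 was 1.14 (SE 0.21, adjusted p = 0.0080 in edgeR). Within batches its log2 difference was 1.14 in batch 1 and 1.14 in batch 2. P4HA1, like P4HA2 and PLOD2, was called in each of the 6 fits with 1 library left out.

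P4HA2 was at 298, 311 and 321 CPM in SSC PDGF+ and at 166, 161 and 170 CPM in SSC PDGF-. The groups did not overlap, and the libraries of each group lay close together, with replicate 1 the lowest in SSC PDGF+ and between the other libraries in SSC PDGF-. Mean levels were 310 ± 11.6 CPM and 166 ± 4.88 CPM, a 1.87-fold difference. The log2 fold change of P4HA2 was 0.90 (SE 0.12, adjusted p = 0.0018 in edgeR), with 0.84 in batch 1 and 0.93 in batch 2.
Together the alpha subunits were at 561 ± 43.6 CPM with PDGF against 280 ± 26.5 CPM without it (two-sided exact permutation test, p = 0.1, which is the least that 3 against 3 libraries can give). P4HA1 held 51.1% of their summed counts in SSC PDGF+ replicate 1 and 46.0% in SSC PDGF- replicate 1. In batch 2 the same share was 40.7% and 41.6% with PDGF and 36.9% and 38.5% without. The share of P4HA1 was thus higher with PDGF inside each batch, while the pooled groups overlapped (two-sided exact permutation test, p = 0.5).
The third alpha subunit, P4HA3, is outside the rule and was at 154 ± 2.52 CPM with PDGF against 164 ± 18.8 CPM without it (log2 fold change -0.09, SE 0.13, adjusted p = 0.68 in edgeR). P4HB, the beta subunit, was at 3076 ± 303 CPM and 3056 ± 209 CPM, a log2 fold change of 0.01 (SE 0.12, adjusted p = 0.96 in edgeR). The log2 ratio of summed P4HA1 and P4HA2 to P4HB was -2.16, -2.65 and -2.54 with PDGF and -3.20, -3.64 and -3.52 without. This ratio was higher in each SSC PDGF+ library than in any SSC PDGF- library, by 1.00 on average (two-sided exact permutation test, p = 0.1). P4HA3 and P4HB were named with their values in view.

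Among lysyl hydroxylases, PLOD2 rose. PLOD1 and PLOD3 were higher with PDGF within each batch but did not pass the test without a batch term. PLOD2 encodes the enzyme that hydroxylates lysine in the telopeptides, the chain ends where cross-links form. PLOD2 was at 226, 167 and 174 CPM in SSC PDGF+ and at 108, 80.2 and 74.4 CPM in SSC PDGF-. Replicate 1 was again the highest of each group, and the groups did not overlap. Its means were 189 ± 32.1 CPM and 87.7 ± 18.3 CPM, a 2.16-fold difference. The log2 fold change of PLOD2 was 1.11 (SE 0.19, adjusted p = 0.0066 in edgeR), with 1.06 in batch 1 and 1.14 in batch 2.

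PLOD1, which encodes the lysyl hydroxylase that acts mainly on the helical part of collagen, was at 263, 413 and 408 CPM in SSC PDGF+ and at 181, 233 and 255 CPM in SSC PDGF-. The groups did not overlap, but SSC PDGF+ replicate 1 lay close to the highest SSC PDGF- library. The log2 fold change of PLOD1 was 0.70 (SE 0.21, adjusted p = 0.055 in edgeR), with 0.54 in batch 1 and 0.75 in batch 2. Blocked by replicate number, PLOD1 had a log2 fold change of 0.68 and was called (adjusted p = 1.8e-10 in edgeR), in a fit that called 31.1% of all genes higher and 29% lower.
PLOD3, whose product also transfers sugars to hydroxylysine, was at 289, 498 and 495 CPM in SSC PDGF+ and at 179, 285 and 294 CPM in SSC PDGF-. SSC PDGF+ replicate 1 lay between the SSC PDGF- libraries, so the groups overlapped. Its log2 fold change was 0.76 (SE 0.26, adjusted p = 0.081 in edgeR), with 0.69 in batch 1 and 0.78 in batch 2, and the block gave 0.75 (adjusted p = 3.5e-12 in edgeR). Without SSC PDGF+ replicate 1, both genes were called, PLOD1 with an adjusted p = 0.0098 in edgeR and PLOD3 with an adjusted p = 0.016 in edgeR. That fit had no batch term and held batch 1 in SSC PDGF- only. Its log2 fold changes were 0.89 for PLOD1 and 0.99 for PLOD3, above those inside either batch.

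The summed lysyl hydroxylases were at 978 ± 173 CPM with PDGF against 563 ± 82.8 CPM without it, and these sums did not overlap (two-sided exact permutation test, p = 0.1). PLOD1 held 33.9%, 38.3% and 37.9% of this sum with PDGF and 38.6%, 39.0% and 40.9% without. This was the share of the 3 that did not overlap between groups, lower with PDGF by 2.82 percentage points (two-sided exact permutation test, p = 0.1). PLOD2 held 29.0% with PDGF and 23.1% without in batch 1. In batch 2 it held 15.5% and 16.1% with PDGF and 13.4% and 11.9% without. Pooled over batches, the shares of PLOD2 and PLOD3 overlapped between groups (two-sided exact permutation tests, p = 0.5 for both).

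**Figure D2:**
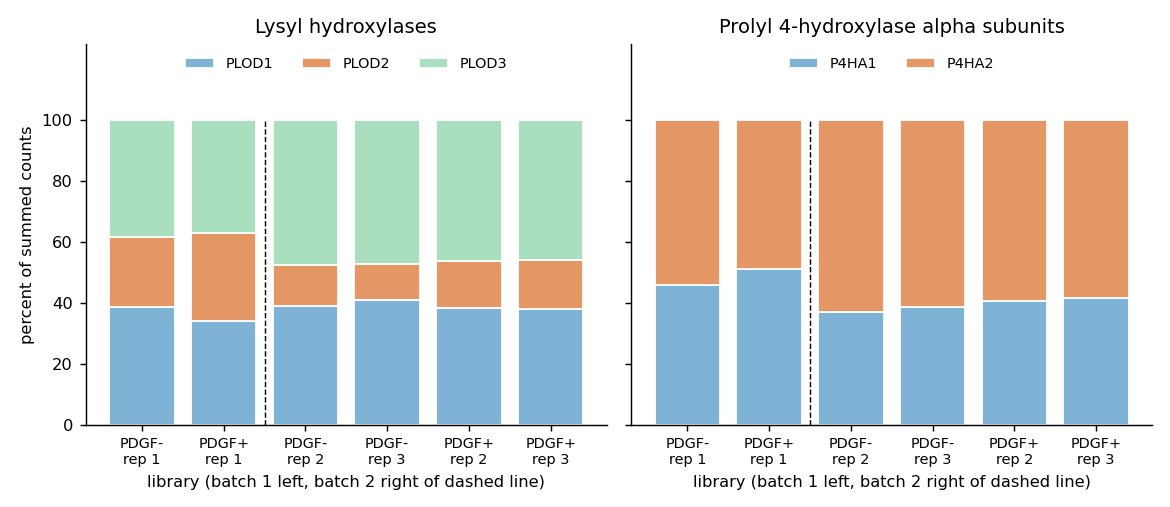
Share of each gene, in percent, in the summed counts of PLOD1, PLOD2 and PLOD3 (left) and of P4HA1 and P4HA2 (right), 1 bar per library, batch 1 left of the dashed line. PLOD2 takes 29.0% and 23.1% in batch 1 and 11.9% to 16.1% in batch 2, so this share differed more between batches than between groups.

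The lysyl oxidase family was represented by LOXL1, which acts mainly on elastic fibers, and LOXL3. LOXL3 was at 11.5, 16.1 and 14.1 CPM in SSC PDGF+ and at 19.5, 24.2 and 22.5 CPM in SSC PDGF-. Each SSC PDGF+ library was below each SSC PDGF- library. Mean levels were 13.9 ± 2.32 CPM and 22.1 ± 2.37 CPM, so LOXL3 was 1.59-fold lower with PDGF. Its log2 fold change was -0.67 (SE 0.19, adjusted p = 0.045 in edgeR), with -0.77 in batch 1 and -0.63 in batch 2. The call was lost in 5 of the 6 fits with 1 library left out, with edgeR adjusted p between 0.076 and 0.16, and was kept without SSC PDGF- replicate 1 (adjusted p = 0.027 in edgeR); each fit kept the direction.
In the Mmul_10 annotation, 196 exon bases of LOXL3 are shared with HTRA2, a gene on the opposite strand, and the strand setting of the counting is not given. HTRA2 was at 45.9 ± 13.3 CPM and 46.5 ± 3.63 CPM, with a log2 fold change of -0.02 (SE 0.23, adjusted p = 0.96 in edgeR). LOXL1 shares 85 exon bases with an antisense lncRNA, whose reads cannot be told apart from those of LOXL1 if strand was not used.

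LOXL1 was at 100.1, 280 and 305 CPM in SSC PDGF+ and at 79.3, 227 and 225 CPM in SSC PDGF-. Both replicates 1 lay far below the batch 2 libraries of either group, and the groups overlapped. The log2 fold change of LOXL1 was 0.37 with a 95% interval of -0.74 to 1.48 (adjusted p = 0.63 in edgeR). Without SSC PDGF- replicate 1 it was -0.00013, in a fit that had no batch term and held batch 1 in SSC PDGF+ only. Within batches LOXL1 was higher with PDGF by 0.34 in batch 1 and 0.37 in batch 2 on the log2 scale. In the blocked fit LOXL1 had 0.36 (adjusted p = 2.8e-06 in edgeR). The share of LOXL3 in the summed LOXL1 and LOXL3 counts was 10.3% against 19.8% without PDGF in batch 1. In batch 2 it was 5.44% and 4.43% with PDGF and 9.64% and 9.11% without, so it was lower with PDGF inside each batch, while the pooled groups overlapped (two-sided exact permutation test, p = 0.3).

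**Figure D3:**
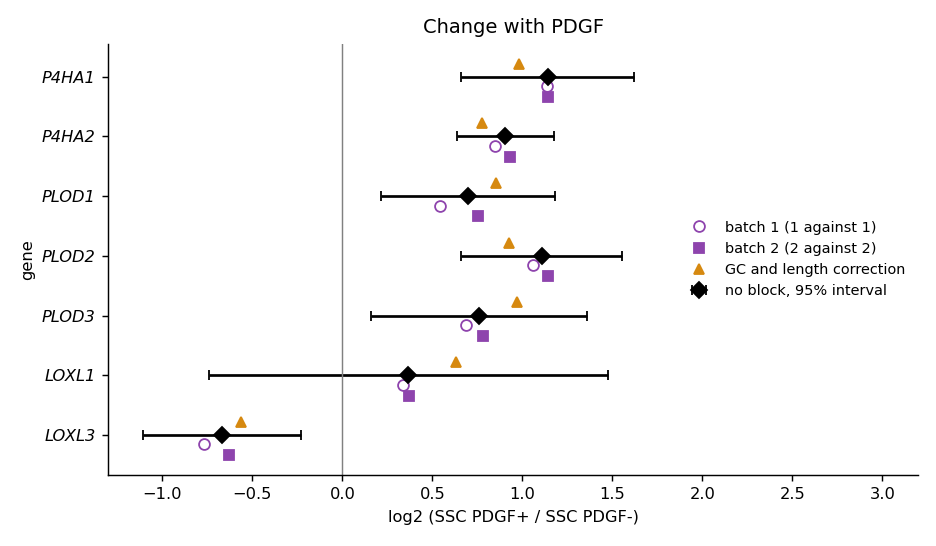
Log2 of SSC PDGF+ over SSC PDGF- for each member on the horizontal axis. Black diamonds with 95% intervals are the edgeR fit without a block, orange triangles correct for GC content and length, and purple symbols are the differences inside batch 1 (circles) and batch 2 (squares). The batch values differ by 0.0043 to 0.21, and LOXL1 has the widest interval, -0.74 to 1.48.

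Levels also differed between batches, in opposite directions for different members. LOXL1 was lower in batch 1, with a log2 difference of batch 1 from batch 2 of -1.54 with PDGF and -1.51 without. PLOD3 (-0.78 and -0.69) and PLOD1 (-0.64 and -0.43) were also lower in batch 1 on this scale. P4HA1 (0.49 and 0.50) and PLOD2 (0.41 and 0.49) were higher in batch 1, and P4HA2 (-0.08 and 0.0046) was at about the same level in both. LOXL3 had differences of -0.39 and -0.26.
The members were not alike in the GC content of their longest transcript. It was 41.2% in PLOD2, 41.9% in P4HA1, 45.1% in P4HA2, 57.3% in LOXL3, 59.9% in PLOD1, 61.9% in PLOD3 and 65.5% in LOXL1. Over all tested genes with a value, the median log2 difference of batch 1 from batch 2 was 0.46 among the 2810 genes with the lowest GC content and -0.64 among the 2809 with the highest. The change with PDGF also differed by GC content, with a median log2 fold change of 0.20 in the former set and -0.24 in the latter. When GC content and gene length were corrected for, a choice made after seeing the data, the log2 fold changes were 0.98 for P4HA1, 0.92 for PLOD2, 0.78 for P4HA2, 0.97 for PLOD3, 0.85 for PLOD1, 0.63 for LOXL1 and -0.56 for LOXL3. Under that correction edgeR called 6 members higher and LOXL3 lower (adjusted p = 0.0054 for LOXL3), where 20.4% of all genes were called higher and 21.3% lower. LOXL1 was the member nearest the threshold (adjusted p = 0.038 in edgeR). The part of GC content in the results was not tested further.

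**Figure D4:**
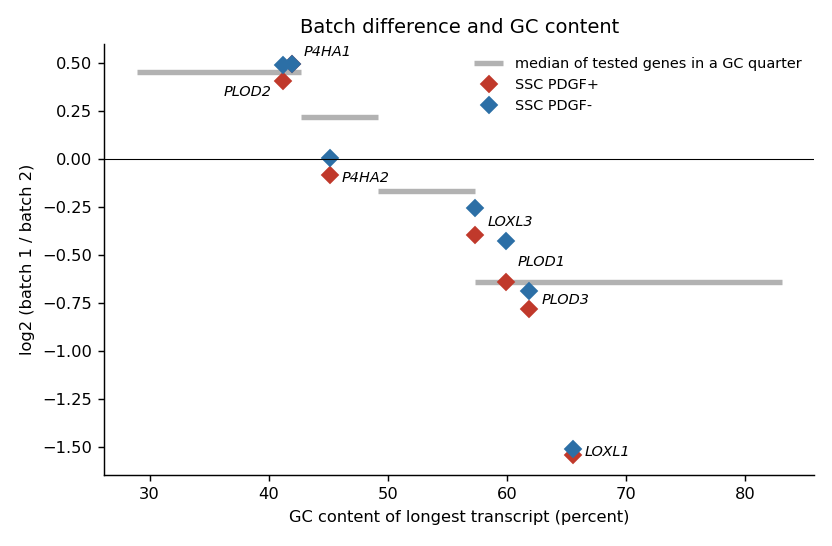
Log2 of batch 1 over batch 2 for each member, in SSC PDGF+ (red) and SSC PDGF- (blue), against the GC content of its longest RefSeq transcript in percent; grey bars are medians of all tested genes in each of 4 GC classes of like size. Values run from 0.50 in P4HA1 to -1.54 in LOXL1, and lie close together in both groups.

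Levels were compared between genes as CPM per kilobase of exon (RPKM), using exon lengths of the Mmul_10 annotation. In SSC PDGF+ the order of mean RPKM was PLOD3 (151 ± 42.3), PLOD1 (108 ± 25.5), P4HA1 (83.0 ± 17.4), LOXL1 (78.3 ± 38.3), P4HA2 (63.4 ± 2.38), PLOD2 (40.1 ± 6.81) and LOXL3 (3.16 ± 0.529). Libraries of neighbours in this order overlapped down to P4HA2, while PLOD2 and LOXL3 lay below their upper neighbours in all 3 libraries. Genes that were not neighbours could still overlap. In SSC PDGF+ replicate 1, LOXL1 (34.3) lay below every PLOD2 library of the group (35.5 to 47.9). In the same library P4HA1 (102.9) was the highest member, just above PLOD3 (101.8). In SSC PDGF- the order was PLOD3 (89.1 ± 22.4), PLOD1 (66.9 ± 11.4), LOXL1 (60.7 ± 29.1), P4HA1 (37.7 ± 8.11), P4HA2 (33.9 ± 0.998), PLOD2 (18.6 ± 3.87) and LOXL3 (5.03 ± 0.540). The same steps, between P4HA2 and PLOD2 and between PLOD2 and LOXL3, were free of overlap there.

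Each of the 7 members was set against the sum of 3 abundant fibrillar collagen chains; no ratio to elastin was made for LOXL1. The summed level of COL1A1, COL1A2 and COL3A1, the chains of type I and type III collagen, was 15750 ± 3217 CPM with PDGF against 15830 ± 1641 CPM without it (two-sided exact permutation test, p = 1). Relative to this sum, the log2 ratio of P4HA1 was higher with PDGF by 1.17, of PLOD2 by 1.14, of P4HA2 by 0.93, of PLOD3 by 0.77 and of PLOD1 by 0.71. These 5 ratios did not overlap between groups, nor did that of LOXL3, which was lower with PDGF (-0.65; two-sided exact permutation tests, p = 0.1 for each of the 6). The sum was alike in both groups, so these differences are close to the members' own log2 fold changes. In CPM, 18.2% of all genes tested did not overlap with PDGF higher and 19.3% with PDGF lower. No such share was computed for these ratios. For LOXL1 the difference was 0.38 with overlapping groups (two-sided exact permutation test, p = 0.5).

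Inside the sum, single chains differed. COL3A1, the type III chain, was at 2757, 2868 and 2931 CPM in SSC PDGF+ and at 6258, 5848 and 5809 CPM in SSC PDGF-. It fell in SSC PDGF+, with a log2 fold change of -1.07 (SE 0.10, adjusted p = 4.2e-04 in edgeR). COL1A1 was at 6841 ± 2384 CPM with PDGF against 4522 ± 1558 CPM without it (log2 fold change 0.60, adjusted p = 0.25 in edgeR); it was higher with PDGF within each batch and called with the block (adjusted p = 5.0e-14 in edgeR).
Of 10 fibrillar collagen and elastin genes tested, 1 rose, 4 fell and 5 did not pass, with a median log2 fold change of 0.12; with the replicate block 4 were higher and 4 lower. Over all genes tested, 7.61% were called higher and 10.7% lower without the block, and 31.1% and 29% with it. ELN, which encodes elastin, fell from 30.7 ± 7.62 CPM without PDGF to 0.795 ± 0.280 CPM with it, a log2 fold change of -5.27 (SE 0.33, adjusted p = 9.3e-05 in edgeR). COL5A3, a type V chain, rose (log2 fold change 3.26, adjusted p = 1.1e-04 in edgeR), and COL11A1 (-1.23) and COL11A2 (-1.85) fell.
Of 6 basement membrane collagen genes, 3 rose, none fell and 3 did not pass, with a median of 0.88 (4 higher and 1 lower with the block). COL4A1 was at 413 ± 9.33 CPM with PDGF against 101 ± 6.56 CPM without it (log2 fold change 2.03, SE 0.12, adjusted p = 8.0e-05 in edgeR). COL4A2 (1.27) and COL15A1 (2.17) were the others that rose.

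**Figure D5:**
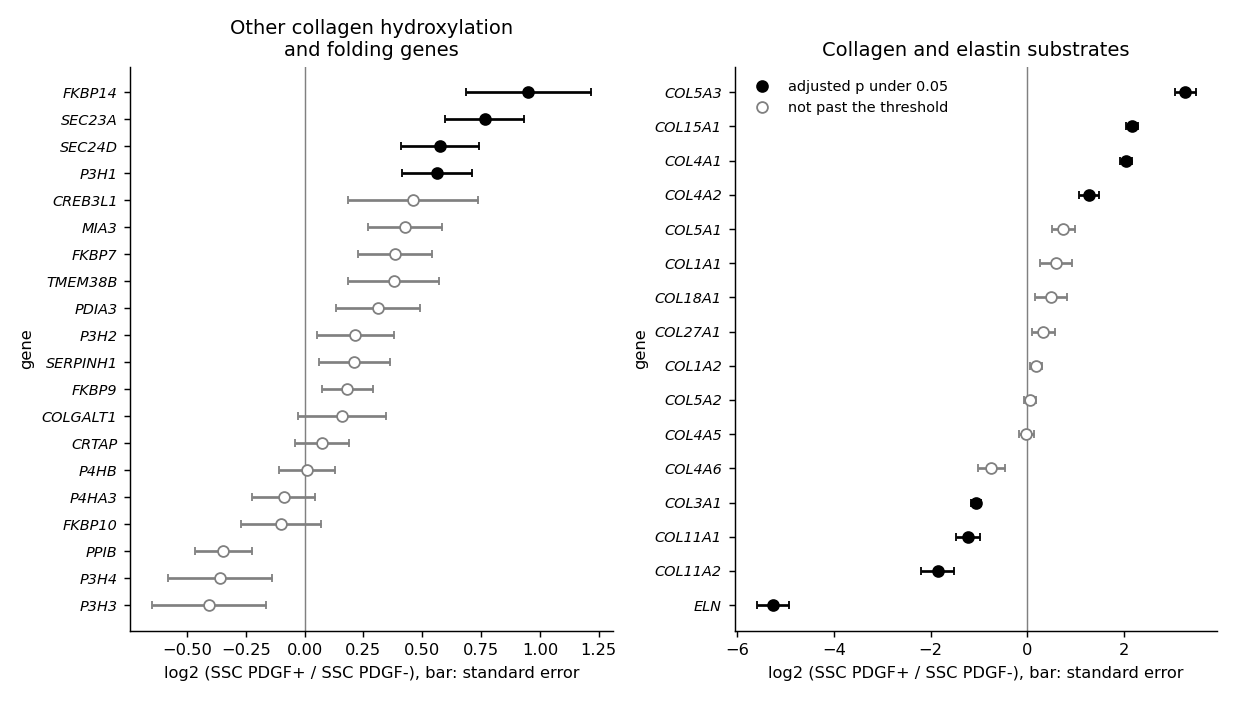
Log2 of SSC PDGF+ over SSC PDGF- with standard errors for the tested genes of collagen hydroxylation and folding (left) and for collagen chains and elastin (right). Filled points passed an edgeR adjusted p under 0.05. Changes of the folding genes lie between -0.41 and 0.95, those of the substrates between -5.27 and 3.26.

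Among 20 tested genes of collagen hydroxylation, folding and export outside the rule, 4 rose, none fell and 16 did not pass, with a median log2 fold change of 0.21. With the replicate block 12 were higher and 4 lower, where 31.1% of all genes were higher and 29% lower. The 4 lower in that fit were P3H3 (log2 fold change -0.42), P3H4 (-0.38), PPIB (-0.35) and FKBP10 (-0.11). Without the block, 7.61% of all genes were called higher and 10.7% lower. The genes that rose were FKBP14, a prolyl isomerase of the endoplasmic reticulum (log2 fold change 0.95, adjusted p = 0.042 in edgeR), SEC23A (0.76, adjusted p = 0.017) and SEC24D (0.57, adjusted p = 0.047), coat proteins of the vesicles that carry procollagen, and P3H1, a prolyl 3-hydroxylase (0.56, adjusted p = 0.035). Over the 6 fits with 1 library left out, FKBP14 was called in 2, SEC23A in 4, SEC24D in 1 and P3H1 in 1. SERPINH1, the collagen chaperone HSP47 and the most abundant gene of this list, was at 4347 ± 513 CPM and 3754 ± 585 CPM and did not pass (adjusted p = 0.37 in edgeR).
Of 12 tested genes of procollagen processing and lysyl oxidase activation, none rose, 2 fell and 10 did not pass, with a median of 0.03; with the block 5 were higher and 6 lower. POSTN, a matricellular protein that binds the protease BMP1 and helps activate LOX, fell from 827 ± 261 CPM without PDGF to 242 ± 78.2 CPM with it (log2 fold change -1.77, SE 0.28, adjusted p = 0.0045 in edgeR). FBLN5, which tethers lysyl oxidases to elastin, fell from 30.4 ± 2.64 CPM to 14.8 ± 1.89 CPM (log2 fold change -1.04, adjusted p = 0.0049 in edgeR). ELN, FBLN5 and LOXL3 had lower levels in every SSC PDGF+ library than in any SSC PDGF- library, as did 19.3% of all genes tested, while LOXL1 did not. These genes were set side by side with their values in view.

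Genes that supply the cofactors of the members were mixed. The counts of this list and those below stand beside 7.61% of all genes called higher and 10.7% lower. With the block these shares were 31.1% and 29%. Of 12 tested genes of copper, iron and ascorbate supply, 4 rose, 2 fell and 6 did not pass, with a median of 0.14 (6 higher and 2 lower with the block). SLC23A2, an ascorbate transporter, was at 38.0 ± 2.72 CPM with PDGF against 20.2 ± 1.03 CPM without it (log2 fold change 0.91, adjusted p = 0.0051 in edgeR). SLC31A2, a copper transporter (1.17, adjusted p = 0.0021), and TFRC, the transferrin receptor (0.92, adjusted p = 0.013), also rose. The remaining gene that rose is not described here. TFRC was called in 4 of the 6 fits with 1 library left out. FTL (-0.73) and FTH1 (-0.62), the ferritin chains that store iron, fell.
Among 16 other tested 2-oxoglutarate oxygenases, the enzyme class of the hydroxylases, 3 rose, 1 fell and 12 did not pass, with a median of 0.17 (7 higher and 3 lower with the block). ASPH, which hydroxylates aspartate and asparagine, had a log2 fold change of 1.22 (SE 0.20, adjusted p = 0.0051 in edgeR). TET3 (1.07) and OGFOD1 (0.63) also rose, and were called in 1 and 2 of the 6 fits with 1 library left out. EGLN3, a prolyl hydroxylase that acts on HIF, fell (-2.55, adjusted p = 8.7e-05).
Of 18 tested genes of the hypoxia response, 12 rose, none fell and 6 did not pass, with a median of 1.05 beside 0.02 over all genes tested (16 higher and 1 lower with the block). VEGFA (3.02), NDRG1 (2.87) and HK2 (2.41) had the largest log2 fold changes of those that rose. The list was written with the hypoxia genes of these libraries already known to be higher, so it is not independent evidence of its direction. EGLN3, which fell, was counted among the oxygenases above and not in this list.

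The genes with profiles most like that of P4HA1, the member with the largest log2 fold change, were found by the root mean square difference of centered log2(CPM + 1) values over the 6 libraries. Among 1972 genes of like average level, PLOD2 was the closest, at 0.0898. ADAMTS1, a secreted protease, followed at 0.0900 and CALU, a calcium-binding protein of the endoplasmic reticulum, at 0.0904. Both rose, ADAMTS1 with a log2 fold change of 1.08 (adjusted p = 0.0049 in edgeR) and CALU with 0.99 (adjusted p = 0.016 in edgeR). P4HA2 ranked 46 in this order, PLOD1 631, PLOD3 908 and LOXL1 1855. These profiles hold the differences between batches as well as those with PDGF. P4HA1 and PLOD2 were higher in batch 1, while PLOD1, PLOD3 and LOXL1 were lower in it. The ranks are therefore not a measure of likeness in the change with PDGF alone.
Among 3491 genes of like level, SGF29 (0.0580), CCNJL (0.0614) and SERP2 (0.0760) had profiles closest to that of LOXL3, the called member with the lowest log2 fold change. CCNJL (-0.74, adjusted p = 0.025 in edgeR) and SERP2 (-0.62, adjusted p = 0.046) fell, and SGF29 had -0.59 (adjusted p = 0.075).

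The labelled cell type was checked against marker lists. Of 12 undifferentiated spermatogonial markers with a row, 7 were at or below 1 CPM in each library, among them GFRA1, ZBTB16, SALL4 and RET, and NANOS2 was at 0. The list summed to 472 to 519 CPM with PDGF and 432 to 534 CPM without, with UCHL1 its most abundant gene. Of its 5 tested markers, 1 rose and 2 fell, namely UCHL1 (log2 fold change 0.51, adjusted p = 0.032 in edgeR), FGFR3 (-2.07, adjusted p = 0.019) and TSPAN33 (-3.56, adjusted p = 0.0033), which were called in 2, 3 and 6 of the 6 fits with 1 library left out. ID4 was at 131 ± 4.22 CPM with PDGF and 163 ± 14.4 CPM without (adjusted p = 0.12 in edgeR). ETV5 was at 85.4 ± 9.22 CPM and 74.6 ± 5.69 CPM (adjusted p = 0.38 in edgeR). Neither passed. The block gave 2 higher and 3 lower among these 5 markers. Pan germ cell markers summed to 0.301 to 1.22 CPM with PDGF and 5.09 to 9.58 CPM without, and spermatid markers to 104 to 146 CPM and 564 to 865 CPM. Stromal fibroblast markers, which include the collagen chains above, summed to 16935 to 22501 CPM and 20208 to 22661 CPM. Peritubular myoid and smooth muscle markers summed to 586 to 767 CPM with PDGF and 1116 to 1308 CPM without. Of the 10 tested markers of this kind, 2 rose, RGS5 (log2 fold change 1.94) and MCAM (0.95), and 3 fell, ACTA2 (-1.19), DES (-3.27) and MYLK (-3.20). MCAM was called in 4 of the 6 fits with 1 library left out and the other 4 genes in all 6. Of 10 stromal fibroblast markers none rose and 2 fell. With the block, 2 myoid markers were higher and 6 lower, and 2 stromal fibroblast markers were higher and 6 lower. Over all genes tested, the shares were 7.61% higher and 10.7% lower without the block, and 31.1% and 29% with it. Sertoli (149 to 183 and 150 to 196 CPM), Leydig (362 to 460 and 362 to 453 CPM) and endothelial (29.4 to 39.3 and 28.0 to 51.8 CPM) markers summed to overlapping ranges, and so did macrophage and T cell markers (17.0 to 19.5 and 11.6 to 18.4 CPM), with PTPRC and CD3E at 0. Of 5 tested Leydig markers none rose and 1 fell, IGF1, from 10.3 ± 4.24 CPM without PDGF to 3.55 ± 0.560 CPM with it (log2 fold change -1.55, adjusted p = 0.014 in edgeR, called in 6 of 6 fits with 1 library left out), while STAR and NR5A1 held most of the Leydig sum. With the block, 2 Leydig markers were higher and 2 lower. The summed spermatid, pan germ cell and myoid markers differed between groups without overlap, and single undifferentiated spermatogonial, stromal fibroblast and Leydig markers were called. The part of any of these markers in the members' results was not tested.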

How the data were processed

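Bulk RNA sequencing counts of 6 libraries, SSC PDGF+ and SSC PDGF- with 3 each, were analysed, with groups, replicate numbers and batches taken from the labels. The authors deposited raw expected counts per gene, without normalization; 34 values of 13 genes were not whole and were rounded, although whole counts had been assumed in the plan. The submitters' processing notes name fastp, HISAT2 2.1.0, SAMtools and featureCounts 2.0.1, and the builds Mmul_10 and Mmul_8.0.1 without a role; annotation and strand setting are not given in the sources used here. Of 2686 LOC identifiers in the table, 2682 occur in RefSeq release 103 of Mmul_10, which was used for promoters, exon lengths and GC content (17013 genes). Totals were 10593808 to 14102698 counts per library. No column belonged to another sample.

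Counts were normalized by TMM after filterByExpr by group and tested in edgeR 4.0.16 under R 4.3.3 without a block, at a Benjamini-Hochberg adjusted p under 0.05. Differences within a batch used 0.5 added counts. Sums, shares and ratios were compared by two-sided exact permutation tests, whose smallest p is 0.1. Same-numbered libraries share a batch by the labels, and their deviations from the group means correlated (r = 0.81, 0.48 and 0.50 for replicates 1, 2 and 3 over 11539 genes), so the replicate block was fitted as an alternative; crossed pairs of replicates 2 and 3 reached r = 0.47 and 0.53, so the batch, more than the number, pairs them.

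The members and lists were chosen with earlier results of these data known. Named genes were the members, from each list up to 3 called genes that rose and 3 that fell the most, the 3 genes most like P4HA1 and LOXL3, and the most abundant or near-absent markers. COL1A1, COL1A2, COL3A1, P4HA3, P4HB, SERPINH1, P3H1, P3H3, P3H4, PPIB, FKBP10 and HTRA2 were named outside this rule. Alternatives were RLE, upper quartile or no normalization factors, other filters, DESeq2 1.42.0, limma-voom (limma 3.58.1), the block, batch as a term, batch 2 alone, summed replicates, GC and length correction (lowess span 0.3), a stricter threshold and each library left out. On simulated counts for this comparison with 11416 genes, edgeR recovered 58 of 112 genes with an absolute log2 fold change of 1 and 85 of 88 with 2, with 4 false calls. The simulated counts held no batch or GC differences, so these figures do not describe the fit on the real libraries. Python 3.11.15 with scipy 1.17.1, pandas 2.3.3 and, for figures, matplotlib 3.10.9 did the rest.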

Additional observations from a re-analysis of the deposited data

How the results depend on the processing

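P4HA1, P4HA2 and PLOD2 kept their direction in all 21 alternative settings and were called in 20 of them, the exception being replicates 2 and 3 summed. LOXL3 was negative in all 21 and called in 13, PLOD1 was positive in 21 and called in 10, PLOD3 was positive in 21 and called in 8, and LOXL1 was positive in 20 and called in 6. Against 3 members called higher, DESeq2 gave 5, and batch 2 alone, the replicate block, a batch term, the GC and length correction with and without the block, and summed replicates with batch as a term each gave 6, while summed replicates without that term gave 0. With 1 library left out the number was 3 to 5. Against 1 member called lower, the fit with no filter, summed replicates and an adjusted p under 0.01 gave 0, and leaving out 1 library gave 0 to 1. The members' median log2 fold change of 0.76 ranged from 0.55 to 0.94 with 1 library left out.

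With 1 library left out, the log2 fold change of LOXL1 ranged from -0.00013 (without SSC PDGF- replicate 1) to 0.73, the difference in summed LOXL1 and LOXL3 from -7.22 (without the same library) to 108 CPM, and that in the log2 ratio of LOXL1 to the collagens from -0.032 (without the same library) to 0.72. The difference in the PLOD2 share ranged from -0.33 (without SSC PDGF+ replicate 1) to 7.56 percentage points. Each of these extremes left out a replicate 1, and so held batch 1 in 1 group only. None carried a batch term, so batch and PDGF are mixed in them. Inside batches, LOXL1 differed by 0.34 and 0.37 on the log2 scale, and the PLOD2 share was higher with PDGF in each batch. The part of batch in these ranges was not tested.

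Over all genes, 878 were called higher and 1230 lower. The replicate block gave 3587 and 3347, batch as a term 3604 and 3387, batch 2 alone 3041 and 3085, summed replicates 206 and 487, summed replicates with batch 3669 and 3420, the GC and length correction 2358 and 2454, the same with the block 3237 and 3261, an adjusted p under 0.01 358 and 544, and leaving out 1 library 435 to 1284 and 726 to 1726. The GC and length correction without the block and the summed replicates with batch were chosen after seeing the data. The block changed the calls of LOXL1, PLOD1 and PLOD3 and of no other member. It is not stated whether replicates 2 and 3 are separate cultures, and LOXL3 rests on 170 to 253 counts per library.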
